A study of Homo sapiens with 12 samples.

Results

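SAMD11, RP11-54O7.3, NOC2L and KLHL17 are 4 of the 55765 gene symbols counted in 12 libraries of SH-SY5Y cells, a human neuroblastoma line that stops dividing and grows neurites when given all-trans retinoic acid (ATRA). SAMD11 and RP11-54O7.3 were selected on their measured counts, which rose clearly when hydrogen peroxide (H2O2) was present during differentiation, and NOC2L and KLHL17 because they lie beside SAMD11 on chromosome 1. The choice used the co-treatment values of all 4 genes, which are given here as a description without a test. All cells in all groups received 10 μM ATRA for 7 days. In the co-treatment experiment, 3 libraries came from cells with H2O2 in the medium during those 7 days and 3 from controls with ATRA alone. In the pre-treatment experiment, 3 libraries came from cells kept in H2O2 for 72 h before ATRA was added. Another 3 came from separate controls differentiated without H2O2. The series description gives the H2O2 dose as 10 mM and the methods give 10 μM. All libraries come from 1 cell line, and nothing states whether the replicates of a group were independent cultures, so p-values measure only the spread between these libraries.

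SAMD11 encodes a nuclear protein with a sterile alpha motif (SAM) domain, a fold through which proteins of the Polycomb repressive complexes polymerise, and it is best known from photoreceptor cells. NOC2L, also called NIR, is a nucleolar protein that binds p53 and inhibits histone acetyltransferases, and its yeast counterpart takes part in assembly of the large ribosomal subunit. KLHL17, or actinfilin, is a kelch-repeat protein of neurons that binds actin and serves as a substrate adaptor of CUL3 ubiquitin ligases. RP11-54O7.3 is named after a genomic clone, and no function is given for it here.

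On hg19, the build of the count files, SAMD11 lies on the plus strand at chr1:859303-879955, with 4172 exonic bases in 14 exon blocks. NOC2L runs towards it on the minus strand at chr1:879583-894689, with 5540 exonic bases in 19 blocks, so that the 3′ ends of both genes share 373 bases. All of these shared bases are exonic in both genes, and they make up 8.94% of the exonic bases of SAMD11 and 6.73% of those of NOC2L. KLHL17 is at chr1:895964-901099 on the plus strand, with 3402 exonic bases in 10 blocks, and starts 1274 bases from the start of NOC2L in the opposite direction. The starts of NOC2L and KLHL17 are 35.4 and 36.7 kb from the start of SAMD11. RP11-54O7.3 is named only. The strand setting of the counting is not given in the sources used here, so the reads of the shared bases may have been assigned to either gene or left out.

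The 250 bases before the RefSeq start of each gene on GRCh38.p14 are shown because SAMD11 and its neighbours NOC2L and KLHL17 have promoters rich in GC but did not move by the same amount. Each is written 5′ to 3′ on the strand of its gene, for SAMD11 chr1:925481-925730 (plus strand), for NOC2L chr1:959257-959506 (minus strand) and for KLHL17 chr1:960334-960583 (plus strand). These windows precede RefSeq starts, whereas the positions and distances above use GENCODE starts. For SAMD11 the RefSeq start lies inside the gene as positioned above, so its window does not precede the start given there. The RefSeq start of NOC2L also lies inside that gene as positioned above, so part of its window does too. Capitals mark matches to the GC box GGGCGG on either strand.
SAMD11: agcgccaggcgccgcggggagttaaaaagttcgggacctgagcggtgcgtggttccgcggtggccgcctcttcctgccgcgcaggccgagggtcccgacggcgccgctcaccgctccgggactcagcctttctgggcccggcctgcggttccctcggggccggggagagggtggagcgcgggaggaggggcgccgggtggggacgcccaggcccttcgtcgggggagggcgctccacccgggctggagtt
NOC2L: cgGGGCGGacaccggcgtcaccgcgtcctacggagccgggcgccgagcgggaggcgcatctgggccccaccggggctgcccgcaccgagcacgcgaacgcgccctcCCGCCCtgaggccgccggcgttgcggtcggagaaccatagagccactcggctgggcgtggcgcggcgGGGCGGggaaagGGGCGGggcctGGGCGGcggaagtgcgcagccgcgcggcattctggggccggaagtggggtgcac
KLHL17: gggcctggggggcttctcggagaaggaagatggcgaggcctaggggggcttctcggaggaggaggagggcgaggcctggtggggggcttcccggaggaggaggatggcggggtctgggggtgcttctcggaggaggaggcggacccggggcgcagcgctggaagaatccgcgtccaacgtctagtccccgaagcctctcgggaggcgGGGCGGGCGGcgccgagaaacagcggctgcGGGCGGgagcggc
The 3 promoters had a GC content of 75.6%, 78.4% and 73.2%, against a median of 58.0% over 35116 RefSeq promoters of this length. Their ratio of observed to expected CpG was 0.914, 1.03 and 0.854, against a median of 0.558. NOC2L held 5 GC boxes and KLHL17 held 3, some of them overlapping each other, whereas these letters were not in the SAMD11 window. GGGCGG occurred in 42.6% of all promoters. None of the 3 windows held the antioxidant response element core TGACNNNGC on either strand (10.9% of promoters), the AP-1 site TGANTCA (6.57%), the nuclear receptor half-site AGGTCA (12.1%) or the CCAAT box CCAAT (32.0%). The motifs do not overlap one another in these windows, since GGGCGG was the only one present. A match is a description of letters and not of binding, and its absence concerns this window only.

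The libraries held 27576276 to 98287391 counted reads. Control replicates 1 and 2 of the pre-treatment experiment stood apart from the other 10 libraries, with 0.800 and 0.830 reads outside annotated genes for every counted read, against 0.200 to 0.462 elsewhere, and with 1.58% and 2.87% of counts on small-RNA genes, against 5.04% to 17.6%. Control replicate 3 of that experiment had 0.200 and 17.6%, the other end of both ranges, against 0.343 to 0.462 and 13.2% to 15.0% in the pre-treated libraries, so no control lay within the treated range in either measure. Its counts differed from those of controls 1 and 2 by a chi-square of 588 and 534 per degree of freedom, against 27.1 to 151 for other pairs within groups. Pre-treatment results are therefore given with all 6 libraries and without control replicate 3, and treated values are also set beside control replicate 3 alone. Of 12 markers of noradrenergic neuroblastoma cells, all but TH had a median over the 12 libraries of at least 1 CPM (counts scaled for library size with edgeR's TMM factors), and their summed level was 5151 to 5766 CPM in co-treatment controls and 4129 to 4935 CPM in co-treated cells. In these bulk samples, fewer cells of a type and less RNA per cell cannot be told apart.

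SAMD11 was low in control cells and higher in all co-treated libraries. Its raw counts were 259, 175 and 92 in co-treatment controls 1 to 3 and 862, 1974 and 1551 in co-treated replicates 1 to 3. The controls had 5.28, 3.73 and 2.69 CPM and the treated cells 30.6, 31.7 and 30.1. The lowest treated library was 5.71 times the highest control, and the 3 treated libraries lay closer together than the controls (coefficient of variation 2.58% against 33.4%). The mean was 30.8 ± 0.794 CPM (SD, n = 3) with H2O2 and 3.90 ± 1.30 without. The fitted change was a log2 fold change (log2FC) of 2.97 with a standard error (SE) of 0.21, or 7.86-fold. Among the 22089 genes tested this was rank 13 by log2FC and rank 1 by log2FC in units of its SE. That rank belongs to the contrast that chose the gene, as does the 0.335% of tested genes called higher with H2O2 and the 0.598% called in either direction (edgeR's quasi-likelihood test, FDR below 0.05 and log2FC beyond 0.6, a fold that all genes with this FDR passed).

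RP11-54O7.3 was expressed below SAMD11 in counts and rose with it. Its counts in co-treatment were 106, 47 and 27 in controls and 273, 640 and 636 in treated replicates. The CPM were 2.16, 1.00 and 0.789 without H2O2 and 9.70, 10.3 and 12.4 with it, so the groups did not overlap and the lowest treated library was 4.49 times the highest control. All 3 treated libraries lay above all controls in 6.57% of the genes tested in this experiment. The log2FC was 3.01 with an SE of 0.32, or 8.06-fold, rank 10 of 22089.

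NOC2L and KLHL17, within 37 kb of the SAMD11 start, did not separate control from co-treated cells. NOC2L had 104, 113 and 126 CPM in controls and 143, 102 and 125 CPM in co-treated replicates 1 to 3, and the lowest and the highest treated library lay on opposite sides of the control range. Its log2FC was 0.11 with an SE of 0.14. KLHL17 had 19.3, 17.3 and 16.8 CPM in controls and 20.4, 17.9 and 18.6 CPM in co-treated cells, with 1 of 3 treated libraries above all controls. Its log2FC was 0.09 with an SE of 0.13.

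**Figure D1:**
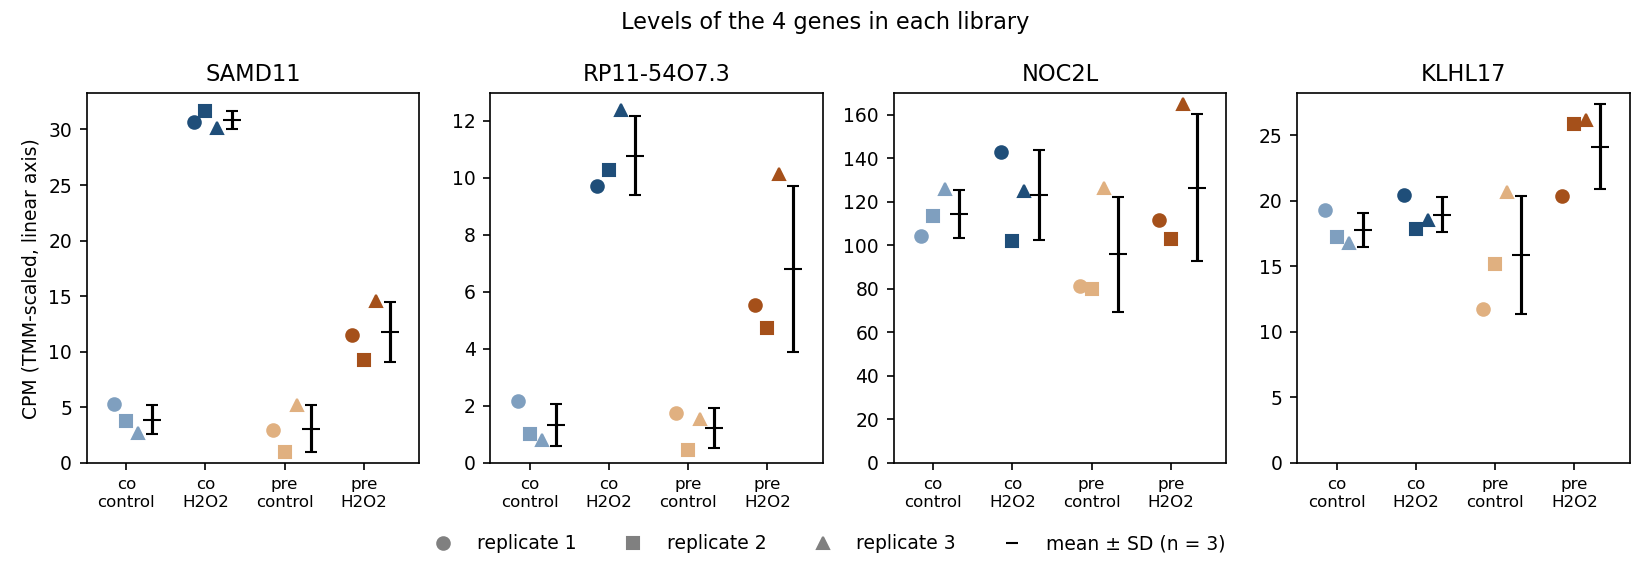
Level of each gene in CPM (TMM-scaled, linear axis from 0, a separate scale for each panel) in the 4 groups. Symbols are the libraries by replicate number, which is not used to pair them, and the black mark is the mean ± SD of 3 libraries. For SAMD11 the co-treated libraries sit between 30.1 and 31.7 CPM and the co-treatment controls between 2.69 and 5.28, whereas for NOC2L and KLHL17 the groups overlap.

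The pre-treatment experiment has its own libraries and controls. There SAMD11 and RP11-54O7.3 were higher in every treated library than in any control, but neither passed the test over all 6 libraries. The genes were chosen for their co-treatment values with the pre-treatment results already known, so these tests are not evidence independent of the choice. SAMD11 had 164, 46 and 343 counts in controls and 1108, 629 and 1166 in pre-treated replicates, or 2.97, 1.01 and 5.23 CPM against 11.5, 9.24 and 14.6 CPM. The lowest treated library was 1.77 times the highest control, which was replicate 3. The log2FC was 1.95 (SE 0.52, edgeR FDR 0.320). An exact two-sided permutation test of the log2 CPM gave p = 0.1, the smallest value that 3 against 3 libraries allow. RP11-54O7.3 had 96, 20 and 100 counts in controls and 535, 322 and 810 in treated cells, or 1.74, 0.438 and 1.52 CPM against 5.54, 4.73 and 10.1 CPM. Its lowest treated library was 2.72 times the highest control, with a log2FC of 2.48 (SE 0.53, edgeR FDR 0.320, exact permutation p = 0.1). Of the 24743 genes tested, 7.97% had all treated libraries above all controls, and 0.0242% were called higher at an FDR below 0.05 with a log2FC above 1. With DESeq2 on the same 6 libraries both genes passed (adjusted p 0.0118 for SAMD11 and 3.53e-04 for RP11-54O7.3), where that tool called 501 genes.

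Without control replicate 3, both genes passed. SAMD11 then rose by a log2FC of 2.60 (SE 0.43, edgeR FDR 0.00529) and RP11-54O7.3 by 2.67 (SE 0.57, edgeR FDR 0.0124). In that comparison 2.91% of 24507 genes were called higher and 8.2% lower, and the 2 controls it keeps are those that stand apart in reads outside genes and in small RNA. The part of these differences in the result was not tested. Set beside control replicate 3 alone, which lay outside the treated range of both measures on the other side, treated SAMD11 was 9.24 to 14.6 CPM against 5.23, and treated RP11-54O7.3 was 4.73 to 10.1 CPM against 1.52. A single control allows no test.

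After pre-treatment the neighbours NOC2L and KLHL17 moved less than SAMD11 and RP11-54O7.3, and neither neighbour was called. NOC2L had 81.2, 80.1 and 126 CPM in controls and 112, 103 and 165 CPM in treated cells, with 1 of 3 treated libraries above all controls. The log2FC was 0.42 (SE 0.27, edgeR FDR 0.584, exact permutation p = 0.3). KLHL17 had 11.7, 15.2 and 20.7 CPM in controls and 20.4, 25.8 and 26.2 CPM in treated cells, with 2 of 3 treated libraries above all controls. Its log2FC was 0.63 (SE 0.25, edgeR FDR 0.395, exact permutation p = 0.2). For both genes control replicate 3 was the highest control and lay within the treated range. Without it the log2FC was 0.70 for NOC2L (SE 0.20, edgeR FDR 0.0346) and 0.89 for KLHL17 (SE 0.18, edgeR FDR 0.0107), both under the fold threshold of 1 on the log2 scale, in a comparison where 26.6% of all genes had an FDR below 0.05. At an unadjusted edgeR p below 0.05, SAMD11, RP11-54O7.3 and KLHL17 passed over 6 libraries, as did 11.2% of all genes, and all 4 passed without control replicate 3, as did 40.8% of all genes.

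**Figure D2:**
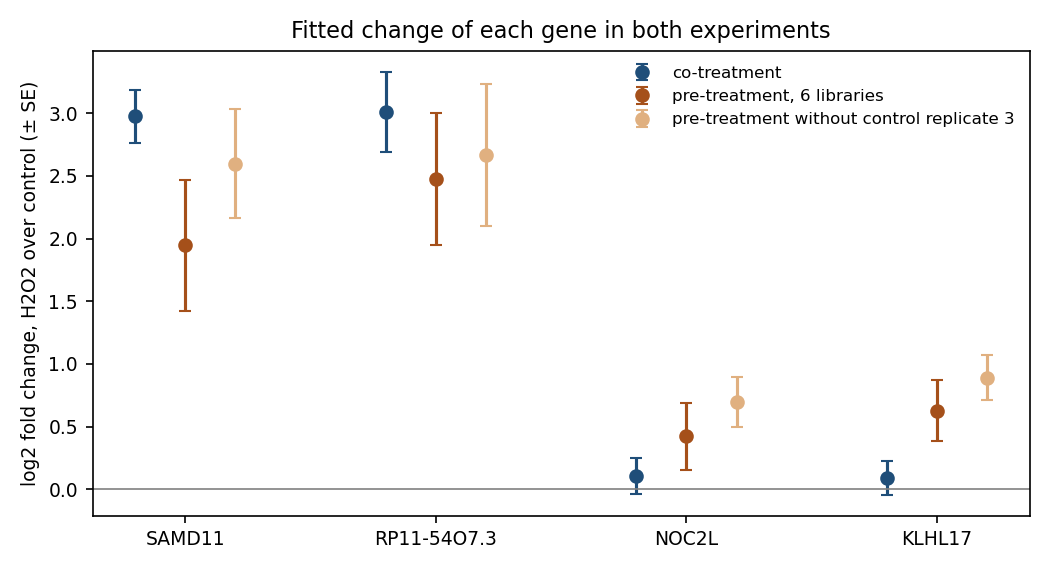
Fitted log2 fold change of H2O2 over control (points) with its SE (bars) for each gene in co-treatment, in pre-treatment over 6 libraries, and in pre-treatment without control replicate 3. SAMD11 and RP11-54O7.3 lie between 1.95 and 3.01 in the 3 comparisons, and NOC2L and KLHL17 between 0.09 and 0.89.

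Ordered by mean level, SAMD11 was highest in co-treated cells, followed by pre-treated cells, co-treatment controls and pre-treatment controls. Its co-treated mean was 2.62 times the pre-treated mean of 11.8 ± 2.69 CPM, and that was 3.02 times the mean of co-treatment controls, with no overlap of libraries at either step. The controls of both experiments overlapped, at 3.90 ± 1.30 and 3.07 ± 2.11 CPM. RP11-54O7.3 had the same order, with means of 10.8 ± 1.40, 6.80 ± 2.92, 1.32 ± 0.738 and 1.23 ± 0.698 CPM, but here co-treated and pre-treated libraries overlapped. Whether the response to H2O2 differed between the experiments was not tested, since the co-treatment response chose the genes. NOC2L and KLHL17 were both highest in pre-treated cells and lowest in pre-treatment controls, and every neighbouring pair of groups in that order overlapped.

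Per kilobase of exon, SAMD11 moved from below KLHL17 to above it in the co-treatment experiment. In co-treatment controls SAMD11 had 0.935 ± 0.312 CPM per kb, KLHL17 5.23 ± 0.387 and NOC2L 20.7 ± 1.97. In co-treated cells SAMD11 reached 7.39 ± 0.190 CPM per kb, against 5.57 ± 0.390 for KLHL17 and 22.3 ± 3.72 for NOC2L. In pre-treated cells SAMD11 stayed below KLHL17, at 2.82 ± 0.645 against 7.10 ± 0.957 CPM per kb. The exon lengths are those of the GENCODE genes, and the annotation used for the counts is not given. Reads of the bases that SAMD11 shares with NOC2L may also be missing, so the order of genes per kb is approximate.

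Ratios within a library need no scaling between libraries. SAMD11 counts were 2.14% to 5.07% of the NOC2L counts in co-treatment controls and 21.4% to 31.1% in co-treated cells. In the pre-treatment experiment they were 1.26% to 4.14% in controls and 8.85% to 10.3% in treated cells. The ratio of NOC2L to KLHL17 counts ran from 5.40 to 7.49 in co-treatment controls and from 5.70 to 7.00 in co-treated cells. In pre-treatment it ran from 5.28 to 6.92 in controls and from 3.98 to 6.30 in treated cells, a log2 ratio that was lower by 0.23 with H2O2.

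The counts of SAMD11 and RP11-54O7.3 were also set against each other. RP11-54O7.3 made up 29.0%, 21.2% and 22.7% of the summed counts of both genes in co-treatment controls (exact 95% Clopper-Pearson intervals 24.4 to 34.0, 16 to 27.1 and 15.5 to 31.3) and 24.1%, 24.5% and 29.1% in co-treated cells (21.6 to 26.6, 22.8 to 26.2 and 27.2 to 31.0). These intervals cover counting error only. The log2 ratio of SAMD11 to RP11-54O7.3 was lower by 0.13 in co-treated cells than in their controls, less than the SD of 0.32 among controls and 0.21 among treated libraries. In pre-treatment the share was 36.9%, 30.3% and 22.6% in controls and 32.6%, 33.9% and 41.0% in treated cells, and these groups overlapped. The log2 ratio of SAMD11 to RP11-54O7.3 was lower by 0.40 in pre-treated cells than in their controls, with an SD of 0.50 among controls and 0.28 among treated libraries. Over the 12 libraries the log2 CPM of both genes had a Pearson r of 0.965, with 0.992 within co-treatment and 0.968 within pre-treatment. These r values are a description, since the libraries of each experiment share their treatment groups. For SAMD11 and NOC2L r was 0.557 (0.189 within co-treatment and 0.790 within pre-treatment), and for SAMD11 and KLHL17 0.508 (0.580 and 0.766).

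**Figure D3:**
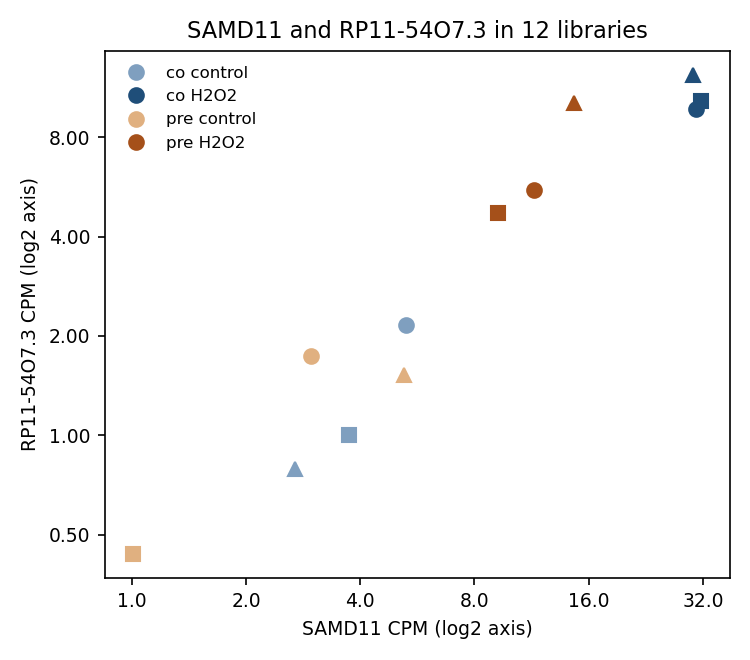
RP11-54O7.3 against SAMD11 in CPM (both log2 axes), 1 point for each of 12 libraries, coloured by group and shaped by replicate number (circle 1, square 2, triangle 3). The points run along a diagonal from pre-treatment control replicate 2 (1.01 and 0.438 CPM) to the co-treated libraries (30.1 to 31.7 and 9.70 to 12.4 CPM).

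The wider region was examined through 39 symbols listed around the locus, of which 37 were in the files and 25 passed the low-count filter in co-treatment. One of the 25 was called higher in co-treated cells and none lower, against 0.335% and 0.263% of all genes tested, and the median log2FC was 0.01 (-0.00 over all genes). The called gene was RP11-54O7.1, whose name comes from the same clone as that of RP11-54O7.3, with 0.775, 0.490 and 0.322 CPM in controls and 1.99, 2.18 and 3.58 CPM in co-treated cells (log2FC 2.27, SE 0.38, edgeR FDR 0.0190). Its call was lost, at an edgeR FDR of 0.111, 0.0564, 0.0699 and 0.179, without control replicate 2, control replicate 3, treated replicate 2 or treated replicate 3, and at 0.624 in 1 fit over all 12 libraries. After pre-treatment RP11-54O7.1 had 0.907, 0.241 and 0.168 CPM in controls and 0.849, 1.03 and 4.58 CPM in treated cells, which overlapped (log2FC 2.33, edgeR FDR 0.363). AL645608.1, a second clone-named symbol of the list, had 1, 1 and 0 counts in co-treatment controls and 5, 22 and 17 in co-treated cells, and was not called (edgeR FDR 0.0686). Its fitted log2FC of 4.05 exceeded that of SAMD11 but depends on the prior count where controls hold so few counts. RP11-54O7.16 had 2, 0 and 5 counts in pre-treatment controls and 25, 10 and 58 in treated cells, and was not called over 6 libraries (edgeR FDR 0.320).

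Among the 19 tested neighbours with a position on hg19, the co-treatment log2FC ran from -0.62 to 0.73 with a median of -0.04, and none was called. PLEKHN1, whose start is 762 bases beyond the end of KLHL17, had a log2FC of 0.47 (edgeR FDR 0.867). ISG15, an interferon-induced ubiquitin-like protein, had 0.73 (FDR 0.60), HES4, a transcriptional repressor of the hairy family, -0.62 (FDR 0.669), and AGRN, the synapse-organising proteoglycan agrin, -0.58 (FDR 0.732) in the same edgeR test. LINC00115 had -0.36 (edgeR FDR 0.835), and FAM41C had at most 2 counts in any library and was not tested. In pre-treatment none of 24 tested neighbours was called over 6 libraries (0.0242% of all genes), with 1.29 for ISG15 (edgeR FDR 0.524) and -0.98 for AGRN (FDR 0.430). Without control replicate 3, ISG15 rose by a log2FC of 2.31 and RP11-54O7.16 by 4.20, and AGRN fell by 1.31 and FAM87B fell by 1.53 on the log2 scale, 4 of 24 where 11.1% of all genes were called. The controls kept there held 2 and 0 counts of RP11-54O7.16, so its fold depends on the prior count. They held 13 and 20 counts of ISG15, which had 1.30 CPM in control replicate 3 and 0.701 CPM in pre-treated replicate 3.

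**Figure D4:**
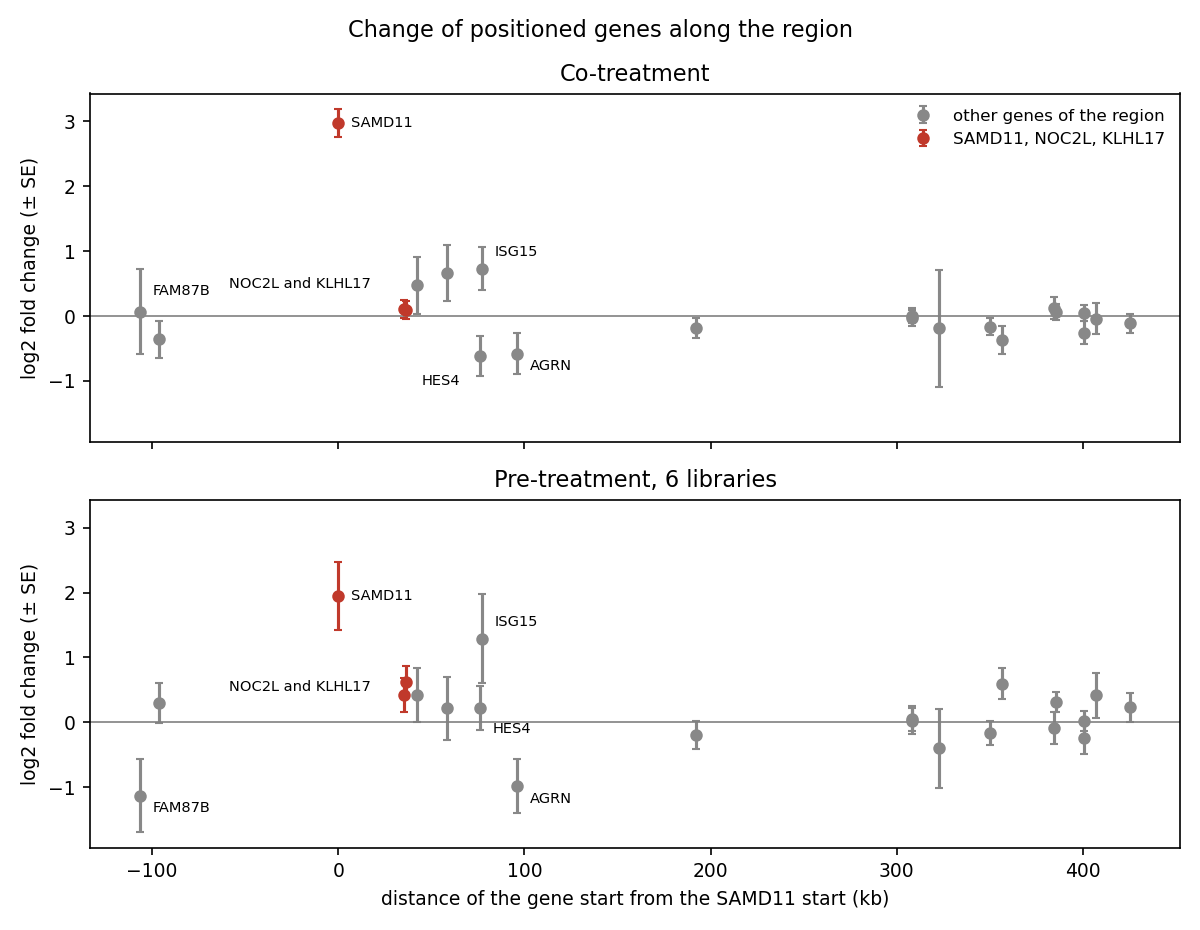
Fitted log2 fold change (± SE) of SAMD11, NOC2L and KLHL17 (red) and of 19 tested neighbours with a known position (grey), against the distance of each gene start from the SAMD11 start in kb, for co-treatment (top) and pre-treatment over 6 libraries (bottom). In co-treatment SAMD11 stands at 2.97 while these positioned neighbours lie between -0.62 and 0.73. RP11-54O7.1, RP11-54O7.16 and AL645608.1, whose co-treatment log2FC were 2.27, 1.52 and 4.05, are not drawn, since they have no position here.

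Few genes that share a pathway or family with the 4 genes were called over all libraries. The share of all tested genes called, against which each list is to be read, was 0.598% in co-treatment, 0.0242% in pre-treatment and 11.1% in pre-treatment without control replicate 3. Of 37 tested Polycomb and SAM-domain genes, 1 was called in co-treatment, PCGF1, a RING-finger partner of the first Polycomb complex, which rose from 40.4 ± 1.12 to 66.4 ± 2.60 CPM (log2FC 0.72, edgeR FDR 0.0135). The PCGF1 call was lost without control replicate 2, treated replicate 2 or treated replicate 3 (edgeR FDR 0.105, 0.0631 and 0.131) and in 1 fit over 12 libraries (0.756). EZH2, the methyltransferase of the second complex, had a log2FC of 0.03 and PHC2, a polyhomeotic SAM-domain subunit, -0.10. In pre-treatment none of 38 was called, and without control replicate 3 2 of 37 were called, BCOR and PCGF2, which fell by 1.82 and 1.65 on the log2 scale. None of 25 genes of the nucleolar NOC complexes and large-subunit assembly was called in either experiment over all libraries, with a median log2FC of 0.08 in co-treatment and 0.42 in pre-treatment, against -0.00 and -0.01 over all genes. For pre-treatment without control replicate 3 the median was 0.73, and EBNA1BP2, GNL3 and NOC3L rose, by a log2FC of 1.34, 1.09 and 1.02. These 3 of 25 genes stand beside 2.91% of all genes called higher and 11.1% called in either direction. Of 33 tested kelch-like and CUL3-related genes, ENC1, an actin-binding kelch protein of neurons, rose in co-treatment from 12.7 ± 1.78 to 32.5 ± 3.10 CPM (log2FC 1.35, edgeR FDR 0.00164), and stayed called without each single library. After pre-treatment ENC1 had a log2FC of -0.54 (edgeR FDR 0.338), and none of the 33 was called. Without control replicate 3, 1 of 33 was called, KLHL26, which fell by 1.11 on the log2 scale. CUL3 itself, the ligase scaffold, had -0.09 and -0.20 in co-treatment and pre-treatment.

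None of 12 targets of NRF2, the transcription factor that answers oxidative stress, was called in either experiment over all libraries. Their median log2FC was 0.25 in co-treatment (9 of 12 positive) and 0.14 in pre-treatment (8 of 12 positive). Over all genes tested, 11018 of 22089 and 12233 of 24743 were positive. With 0.598% and 0.0242% of all genes called, a count of 0 in a list of 12 does not set it apart from the background. HMOX1, heme oxygenase 1, had a log2FC of 0.53 in both (edgeR FDR 0.709 and 0.747). The largest co-treatment changes of the list were 1.75 for OSGIN1 (edgeR FDR 0.203) and -0.96 for FTH1 (edgeR FDR 0.220). NQO1 came nearest to a call in co-treatment, with 32.7 to 47.4 CPM in controls and 61.0 to 66.0 CPM in treated cells (log2FC 0.73, edgeR FDR 0.0511). None of 10 tested retinoic acid response genes was called over all libraries, with a median log2FC of 0.03 in co-treatment (5 of 10 positive) and -0.42 in pre-treatment (1 of 10 positive). CYP26A1, which degrades retinoic acid, had 1086 ± 63.4 CPM in co-treatment controls and 1307 ± 179 CPM in co-treated cells. In pre-treatment it had 1263 ± 487 CPM in controls and 837 ± 619.7 CPM in treated cells, where 1 library was at 122 CPM (log2FC -0.57, edgeR FDR 0.775). Pre-treated ranges were wide for others of the list too, at 21.5 to 426 CPM for CYP26B1, 284 to 1691 for CRABP2 and 989 to 2339 for RET. Without control replicate 3, 3 of 10 were called in pre-treatment: RDH10 rose by 1.47 and CYP26B1 and RET fell by 3.00 and 1.19 on the log2 scale.

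Markers of other cell states were measured beside these results. Of 12 markers of substrate-adherent (S-type) neuroblastoma cells, 10 were tested, and 1 was called in co-treatment, 2 in pre-treatment and 5 in pre-treatment without control replicate 3, against 0.598%, 0.0242% and 11.1% of all genes. VIM, the intermediate filament vimentin, rose from 5.76 to 9.85 CPM in controls to 15.3 to 17.8 CPM in co-treated cells (log2FC 1.16, edgeR FDR 0.0272), and the summed level of the list was 563 to 927 CPM in controls and 737 to 774 CPM in co-treated cells. In pre-treatment VIM rose by a log2FC of 2.42 and COL3A1, a fibrillar collagen, by 2.44 (both edgeR FDR 0.0442), while the sum was 741 to 1247 CPM in controls and 615 to 838 CPM in treated cells. Without single libraries the FDR of VIM reached 0.201 in co-treatment, with the call left only without control replicate 1, and both VIM and COL3A1 lost their pre-treatment calls without each library but control replicate 3 (edgeR FDR 0.195 to 0.446). Without control replicate 3, CD44 and YAP1 rose as well, by 1.09 and 3.09, and NOTCH2 fell by 1.06 on the log2 scale. PRRX1, COL1A1, COL1A2 and YAP1 had medians below 1 CPM over the 12 libraries. The glial and Schwann cell markers SOX10, GFAP, MBP, ERBB3 and FOXD3 had medians below 1 CPM over the 12 libraries, and none of them was called. The noradrenergic markers summed to 4174 to 5449.6 CPM in pre-treatment controls and 4107 to 4799.6 CPM in pre-treated cells, with no call over all libraries, and without control replicate 3 DBH fell by 1.75 and GATA3 fell by 1.47 on the log2 scale. The part of these markers in the rise of SAMD11 and RP11-54O7.3 was not tested.

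The genes whose log2 CPM was most like that of SAMD11 over the 12 libraries, among 24407 genes, were MSX2 (r = 0.968), RP11-54O7.3 (0.965), EDA2R (0.955), LINC00693 (0.950) and KITLG (0.948). MSX2, a homeobox transcription factor, had 4.68 to 7.64 CPM in co-treatment controls, 18.4 to 24.2 in co-treated cells, 2.28 to 8.43 in pre-treatment controls and 9.63 to 11.6 in pre-treated cells. EDA2R, a receptor of the tumour necrosis factor family, ran from 14.6 to 19.6 CPM and from 33.5 to 37 CPM in co-treatment controls and treated cells. KITLG, the ligand of the KIT receptor, ran from 24.2 to 28.2 and from 60.0 to 77.2 CPM in the same groups. For RP11-54O7.3 the list was LINC00693 (0.974), SAMD11 (0.965), SSTR2 (0.951), HAS2 (0.943) and EDA2R (0.940). SSTR2, a somatostatin receptor, had 1.54 to 2.57 CPM in co-treatment controls, 8.60 to 15.6 in co-treated cells, 1.23 to 3.54 in pre-treatment controls and 8.69 to 11.1 in pre-treated cells. HAS2, a hyaluronan synthase, was below 1 CPM in all libraries. These r values carry no p, since the libraries share their experiments and treatment groups. Within either experiment they were 0.928 or higher for all of these pairs.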

How the data were processed

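The 12 libraries were made from total RNA after removal of ribosomal RNA. According to the authors, reads were checked with FastQC (v0.11.8), trimmed with Cutadapt (v2.10), mapped to hg19 with HISAT2 (v2.1.0) and assigned to gene symbols with htseq-count (v0.7.2). The deposited values are raw counts, with 5 closing rows of uncounted reads that were left out of library sizes. The authors' tables of fold changes and p-values were not used. The 4 genes and all gene lists were chosen with earlier results of these data known.

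R 4.3.3, edgeR 4.0.16 and limma 3.58.1 were used. A gene was tested if 3 or more libraries reached the CPM of 5 counts in the smallest library of the experiment (0.181 CPM in co-treatment, 0.120 in pre-treatment). A count of 3 corresponded to 0.0311 to 0.107 CPM. Treated and control libraries were compared within each experiment with edgeR's quasi-likelihood test and Benjamini-Hochberg adjustment (FDR) over all genes tested. A call needed an FDR below 0.05 and a log2FC beyond 0.6 in either direction for co-treatment, or beyond 1 for pre-treatment. Printed CPM used TMM factors over 12 libraries, and log2 CPM a prior count of 2. The fits were tested on simulated data, in which the share of unchanged genes among the calls exceeded the FDR threshold, more so for co-treatment than for pre-treatment, so the printed FDR values may be too small. Alternatives were DESeq2 1.42.0 and its size factors, library size only, no filter, edgeR's exact test, a replicate block, 1 fit over 12 libraries, and fits without each single library.

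Named genes were the 4 genes, called genes of each list (at most 4 by FDR), PLEKHN1, HES4, ISG15, AGRN, FAM41C and LINC00115, and the 5 genes most correlated with SAMD11 and with RP11-54O7.3. AL645608.1, EZH2, PHC2, CUL3, HMOX1, NQO1, OSGIN1, FTH1, CYP26A1 and CRABP2 were named after their values were seen. So were RP11-54O7.16 over all 6 pre-treatment libraries and ENC1 in pre-treatment. Positions came from GENCODE genes lifted to hg19, and 3 of the 4 genes matched RefSeq promoters. The summed level of the glial marker list is not reported here.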

Additional observations from a re-analysis of the deposited data

How the results depend on the processing

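Of 13 alternatives for each gene, the co-treatment log2FC kept its direction in all for SAMD11, RP11-54O7.3 and KLHL17, with ranges over left-out libraries of 2.77 to 3.26, 2.77 to 3.58 and 0.04 to 0.16. RP11-54O7.3 reached 3.58 without control replicate 1. NOC2L ran from -0.00785 to 0.23 and turned to -0.00785 without co-treated replicate 1. In pre-treatment the log2FC ran from 1.53 to 2.60 for SAMD11, 2.05 to 2.78 for RP11-54O7.3, 0.17 to 0.70 for NOC2L and 0.44 to 0.89 for KLHL17, and the adjusted p over all edgeR and DESeq2 alternatives from 0.00529 to 0.952 for SAMD11 and from 3.53e-04 to 0.952 for RP11-54O7.3. SAMD11 passed with no filter (1.95, FDR 0.0279), with DESeq2 (1.92, adjusted p 0.0118), with edgeR's exact test (1.95, FDR 0.0421) and without control replicate 3 (2.60). RP11-54O7.3 passed under the same 4 settings (2.47, 2.45, 2.48 and 2.67, the first 3 at 0.0135, 3.53e-04 and 0.00392). Called genes in co-treatment numbered 132, but 80 with library size only (57 higher, 23 lower), 443 with no filter (205 and 238), 308 with DESeq2, 307 with the exact test, 3 in 1 fit over 12 libraries and 20 to 218 with a library left out (20 without treated replicate 3, 48 without control replicate 2, 49 without treated replicate 2, 85 without treated replicate 1, 218 without control replicate 1). In pre-treatment 6 were called, but 1 with library size only, 300 with no filter (99 and 201), 501 with DESeq2 (186 and 315), 231 with the exact test (133 and 98), 61 in 1 fit over 12 libraries, and 0 to 2722 with a library left out (2722 without control replicate 3, 0 without each other library, with 1240 to 1995 genes at an unadjusted p below 0.05). Locus neighbours called numbered 1 in co-treatment (0 to 2 over alternatives) and 0 in pre-treatment (0 to 4, with 4 without control replicate 3). Correlations of the deviations of same-numbered libraries from their group means ran from -0.27 to 0.03. The labels do not state whether libraries with the same number were paired, and these values cannot tell. A replicate block gave 180 called genes in co-treatment (88 higher, 92 lower) and 0 in pre-treatment (1957 at an unadjusted p below 0.05), with 2.20 for SAMD11 and 2.61 for RP11-54O7.3 in pre-treatment. The causes of these differences were not tested. Low counts limit what is known of the neighbours, of which 12 of the 37 in the files were too low to test in co-treatment.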
